A study of Mus musculus with 5 samples.

Results

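The genes that build fatty acids and join them into triglyceride were followed step by step in mouse mammary glands, in the columns of the deposited expression table for Nfib-null and Nfib-WT glands. The set was defined by name and holds 39 genes of the 22609 in the table. It covers the supply of acetyl-CoA and NADPH, carboxylation to malonyl-CoA, fatty acid synthase and the release of its chains, elongation, desaturation, activation to acyl-CoA, glycerolipid assembly, and regulators of these steps. All 39 symbols were found there, and the mean of 38 was 1 RPKM or more (reads per kilobase, scaled to the mapped reads). Elovl3 lay below that minimum.

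Whole mammary tissue without lymph nodes had been taken from outbred mice that had given birth less than 12 hours before, and poly(A) RNA was sequenced in 3 libraries labelled Nfib-null and 2 labelled wild type. Nfib encodes nuclear factor I/B, a transcription factor, and the series asks what it governs together with STAT5, which carries the prolactin signal. Each gene has 1 value per genotype in the table, so that no spread between animals could be computed and no difference below was tested. The wild-type column carries the name shared by the titles of its libraries. The other column is named NfibFF-WC, which the labels do not explain, and it was taken for the Nfib-null libraries because no other column was left. The labels state neither how nor in which cells Nfib was deleted, nor the age of the mice, nor whether animals were pooled. Values of that column are called those of null glands below, and values of the Nfib-WT column those of wild-type glands. Nfib itself was not lower in null glands, with 55.3 RPKM against 33.7 RPKM in wild-type glands. Undeleted exons and other cells may add reads, so this level does not check the naming of the columns, on which every direction below depends. The decimals bear on it more directly. Of the 12205 values with 10 decimals in the column NfibFF-WC, 84.4% end as a mean of 3 values does, against 0% of 67 in the Nfib-WT column, which matches a column made from 3 libraries.

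Milk fat is made inside the secretory cells of the alveoli. Citrate leaves the mitochondrion, is cleaved to acetyl-CoA and carboxylated to malonyl-CoA, and fatty acid synthase joins these units into a chain. In the mammary gland of mice a separate thioesterase can cut the chain early, which yields the medium-chain fatty acids typical of milk. Chains made in the cell or taken up from blood are then activated, elongated or desaturated and attached in turn to glycerol phosphate to form triglyceride, which is stored in droplets and secreted. Fat cells of the gland run the same pathway for storage, partly with other members of the same enzyme families.

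Most genes for making fatty acids were lower in null glands, whereas genes for attaching them to glycerol stood on both sides. Of the 38 genes above the minimum, 21 were at least 2-fold lower, 4 at least 2-fold higher and 13 within 2-fold. Over all 12511 genes above the minimum, 5.97% were at least 2-fold lower and 6.95% at least 2-fold higher. The median log2 difference of the 38 genes was −1.28, against 0.00 over all genes above the minimum. Differences are given on the scale of log2(RPKM + 1), Nfib-null minus Nfib-WT, after both columns had been divided by a median-ratio factor that set the median ratio of all genes to 1. Levels are given in RPKM before this scaling. With the deposited values in place of scaled ones, 16 of the 38 were lower and 6 higher. Of all genes 2.95% were then lower and 14.4% higher, with a median of 0.35, so the share of the set that was higher was near that of all genes.

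**Figure D1:**
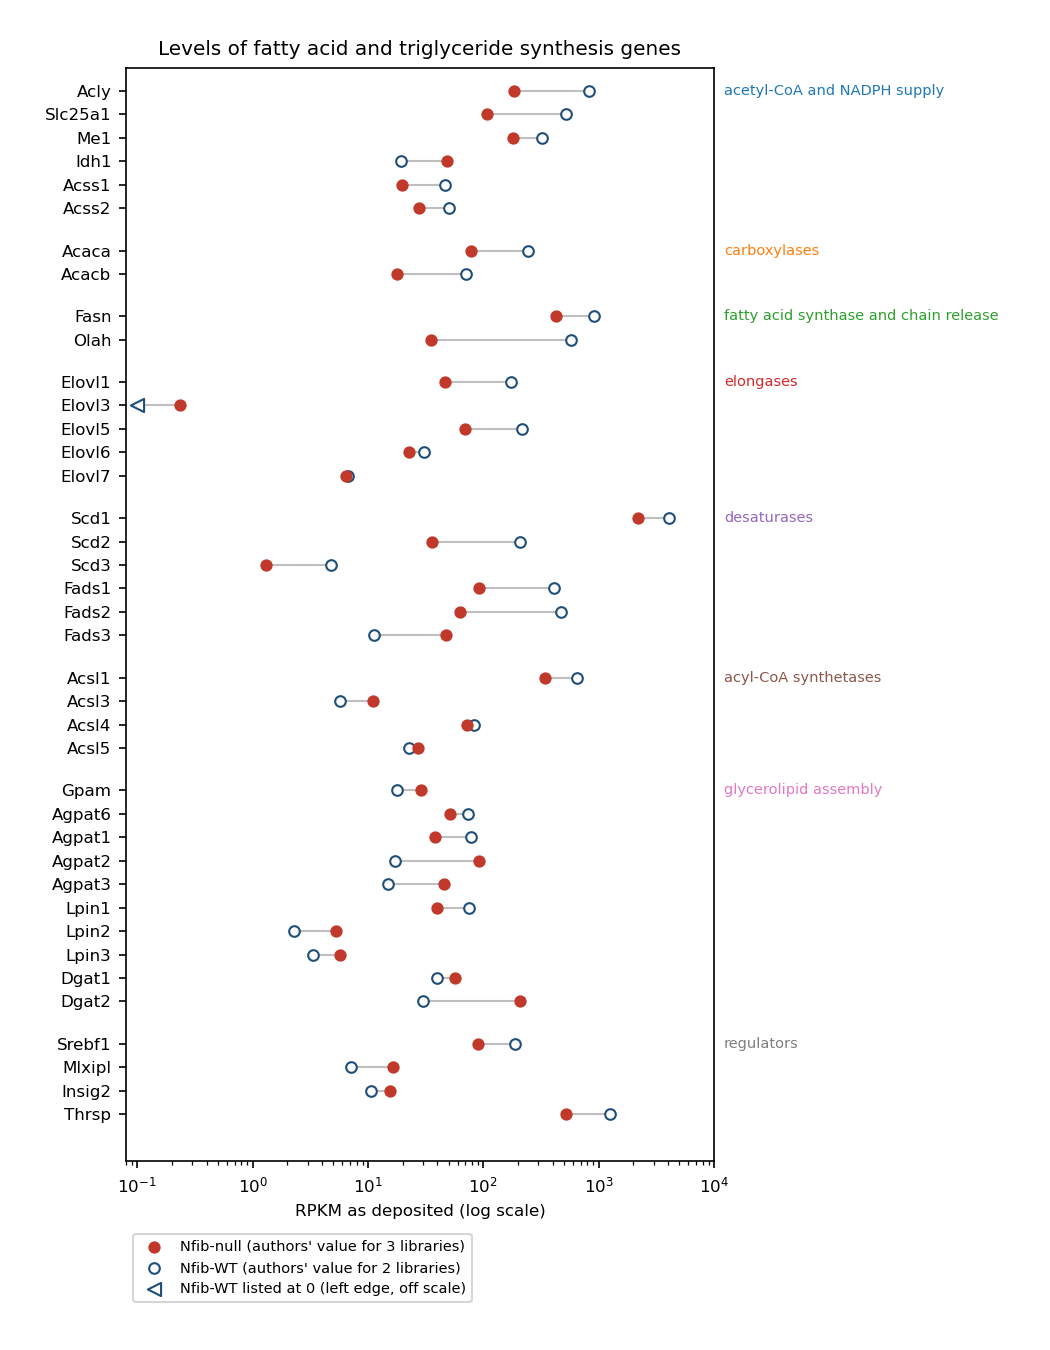
RPKM as deposited, on a log axis, of the 39 genes by step, with a filled point for the Nfib-null column and an open one for the Nfib-WT column, each a single value for its group. The open points of the supply, carboxylase, synthase and desaturase genes lie mostly to the right, up to 4056 RPKM for Scd1. Those of Agpat2, Agpat3, Dgat2 and Fads3 lie to the left of the filled points, as do those of several other genes, among them Idh1, Mlxipl and Dgat1.

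Supply of carbon and reducing power came first. Slc25a1, the carrier that brings citrate out of the mitochondrion, had 107 RPKM in null glands, against 521 RPKM in wild-type glands, a log2 difference of −2.69. Acly, which cleaves that citrate into acetyl-CoA, measured 186 RPKM in null and 823 RPKM in wild-type glands (log2 −2.55). The ratio of Acly to Slc25a1 within a column does not depend on how the columns were scaled, and it was 1.75 in null glands and 1.58 in wild-type glands. Both genes of the citrate route were thus lower by similar amounts.

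The other supply genes were spread more widely. Me1, the malic enzyme that makes NADPH in the cytosol, was at 180 RPKM in null glands and 322 RPKM in wild-type glands (log2 −1.25). Acss2, which makes acetyl-CoA from acetate in the cytosol, reached 28.0 RPKM in null glands, against 50.5 RPKM in wild-type ones (log2 −1.23). Its mitochondrial counterpart Acss1 was at 19.6 RPKM in null and 46.2 RPKM in wild-type glands (log2 −1.60). Me1 and Acss2 were within 2-fold with values as deposited (log2 −0.84 and −0.83). For Me1, 28.3% of the 50-base windows of its transcripts also occur in transcripts of other genes, mostly of Gm7049, so its value is uncertain. Idh1, the cytosolic isocitrate dehydrogenase that also yields NADPH, was the only supply gene with the higher value in null glands, 48.9 RPKM against 19.6 RPKM in wild-type glands. Its difference of 0.88 lay just inside the 2-fold limit and passed it with values as deposited (1.28), with quantile normalization (1.02) and with equal sums without milk protein genes (1.04).

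Both acetyl-CoA carboxylases were lower in null glands. Acaca, the cytosolic enzyme whose malonyl-CoA feeds the synthase, had 78.6 RPKM in null glands, against 245 RPKM in wild-type glands (log2 −2.04). Acacb, the enzyme of the mitochondrial surface whose product restrains fatty acid oxidation, measured 17.8 RPKM in null and 70.7 RPKM in wild-type glands (log2 −2.33). Acaca held 81.5% of the summed RPKM of both carboxylases in null glands and 77.6% in wild-type glands, so that their balance differed little. The value of Acaca may include reads of Gm5182, whose transcripts hold 29.2% of its 50-base windows.

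Fatty acid synthase and the enzyme that ends its chains differed by unequal amounts. Fasn was at 428 RPKM in null glands and 907 RPKM in wild-type glands, a log2 difference of −1.49. Olah, whose product cuts medium-length chains off the synthase, reached 35.3 RPKM in null glands, against 572 RPKM in wild-type ones (log2 −4.38), farther from 0 than every other gene of the set. There were 0.0825 units of Olah RPKM per unit of Fasn RPKM in null glands and 0.630 in wild-type glands, a ratio 7.64 times as high in wild-type glands. By rank among all 22609 genes Olah was number 1985 in null glands and number 90 in wild-type glands, while Fasn was number 139 in null and number 32 in wild-type glands.

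The elongases separated into a lower pair and a pair within 2-fold. Elovl1, which extends saturated and monounsaturated very long chains, had 46.7 RPKM in null glands, against 174 RPKM in wild-type glands (log2 −2.28). Elovl5, which extends polyunsaturated chains, measured 69.2 RPKM in null and 215 RPKM in wild-type glands (log2 −2.03). Elovl6, which turns palmitate into stearate, was at 22.8 RPKM in null glands and 30.5 RPKM in wild-type glands (log2 −0.80). Elovl6 thus made up 15.7% of the elongase RPKM in null glands and 7.17% in wild-type glands. Elovl7 reached 6.51 RPKM in null glands, against 6.70 RPKM in wild-type ones. Elovl3, an elongase known from brown fat, skin and liver, stood at 0.237 RPKM in null glands and was listed at 0 in wild-type glands.

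Of the 6 desaturases 5 were lower, and these included the most abundant gene of the set. Scd1, the stearoyl-CoA desaturase that makes oleate, had 2178 RPKM in null glands, against 4056 RPKM in wild-type glands (log2 −1.31). It ranked number 15 of all genes in null glands and number 14 in wild-type glands, and held 40.6% of the summed RPKM of the set in null and 34.6% in wild-type glands. Its call depended on the scaling, with −0.90 for values as deposited and −0.10 with quantile normalization, which ties values to ranks. Scd2, a second stearoyl-CoA desaturase, differed more, with 35.9 RPKM in null glands and 207 RPKM in wild-type glands (log2 −2.90). Scd3, the isoform known from skin, measured 1.30 RPKM in null and 4.76 RPKM in wild-type glands (log2 −1.61). Its value is uncertain, since 4.77% of the 50-base windows of its transcripts also occur in transcripts of the far more abundant Scd1.

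Fads1 and Fads2, the desaturases that form arachidonic and docosahexaenoic acid from dietary precursors, were both lower. Fads2 was at 62.9 RPKM in null glands and 469 RPKM in wild-type glands (log2 −3.29), and Fads1 at 91.2 RPKM in null and 409 RPKM in wild-type glands (log2 −2.56). Fads3, the third gene of the family, known in mice and humans for desaturating sphingolipid bases, stood on the other side, with 47.1 RPKM in null glands and 11.3 RPKM in wild-type glands (log2 1.58). It made up 23.4% of the summed RPKM of the Fads genes in null glands and 1.27% in wild-type glands. The 3 Fads genes lie side by side on chromosome 19 with no other protein-coding gene between them, and no more than 0.152% of the windows of Fads2 or Fads3 occur in another gene's transcripts. The Scd genes also form a cluster on chromosome 19. Scd4, which lies between Scd2 and Scd1 and is not one of the 39 genes, reached 1.79 RPKM in null glands, against 0.228 RPKM in wild-type ones (log2 1.02), and 5.54% of its windows are shared with other genes.

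Among acyl-CoA synthetases, which activate fatty acids for every later step, Acsl1 alone was past 2-fold with median-ratio scaling. Acsl1, the main isoform of fat, heart and liver, had 343 RPKM in null glands, against 645 RPKM in wild-type glands (log2 −1.32, and −0.91 with values as deposited). The gene model Gm45244 overlaps 9.91% of its exon bases on the opposite strand. Acsl4, which prefers arachidonic acid, measured 71.7 RPKM in null and 83.8 RPKM in wild-type glands (log2 −0.63, and −1.19 with scaling to luminal markers). Acsl5 was at 27.4 RPKM in null glands and 22.7 RPKM in wild-type glands, and Acsl3, a protein of nascent lipid droplets, at 11.1 RPKM in null and 5.77 RPKM in wild-type glands. Acsl1 held 75.7% of the summed RPKM of these synthetases in null glands and 85.2% in wild-type glands.

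In glycerolipid assembly 2 of 10 genes were at least 2-fold lower, 3 at least 2-fold higher and 5 within. Their median log2 difference was 0.29, but it was −0.22 with the columns scaled to luminal markers. In the 5 steps from supply to desaturation the median lay between −2.94 and −1.41 and stayed below 0 under each of the 5 scalings. The first acylation is carried out by glycerol phosphate acyltransferases. Gpam, the mitochondrial one, reached 29.0 RPKM in null glands, against 17.8 RPKM in wild-type ones (log2 0.28). Agpat6, the enzyme of the endoplasmic reticulum now named Gpat4, which mice need for normal milk fat, had 51.3 RPKM in null glands, against 73.4 RPKM in wild-type glands (log2 −0.91). The ratio of Agpat6 to Gpam was 1.77 in null glands and 4.12 in wild-type glands.

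The second acylation, by acylglycerol phosphate acyltransferases, showed a change of leading isoform between the columns. Agpat1, a broadly expressed isoform, measured 38.2 RPKM in null and 79.0 RPKM in wild-type glands (log2 −1.43). Agpat2, whose loss causes generalized lipodystrophy in humans and mice, was at 92.0 RPKM in null glands and 17.0 RPKM in wild-type glands (log2 1.97). Agpat2 held 52.5% of the summed RPKM of Agpat1, Agpat2 and Agpat3 in null glands and 15.3% in wild-type glands, where Agpat1 held 71.1%. Agpat3, which favours polyunsaturated chains, reached 45.2 RPKM in null glands, against 15.0 RPKM in wild-type ones (log2 1.13). It came within 2-fold with scaling to luminal markers (0.58) and with a pseudocount of 5 (0.98).

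Lipins, the phosphatases that turn phosphatidate into diacylglycerol, differed less. Lpin1 had 39.5 RPKM in null glands, against 75.7 RPKM in wild-type glands (log2 −1.33, and −0.92 with values as deposited). Lpin2 was at 5.29 RPKM in null and 2.27 RPKM in wild-type glands, and Lpin3 at 5.70 RPKM in null and 3.34 RPKM in wild-type glands, both within 2-fold.

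The last acylation, from diacylglycerol to triglyceride, is made by a pair of unrelated enzymes. Dgat1, which mice need in order to lactate, was at 57.4 RPKM in null glands and 39.8 RPKM in wild-type glands (log2 0.12). Dgat2, the main source of stored triglyceride in mice, reached 209 RPKM in null glands, against 29.9 RPKM in wild-type ones (log2 2.36), the highest difference of the set. Dgat2 held 78.4% of the summed RPKM of the pair in null glands and 43.0% in wild-type glands.

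**Figure D2:**
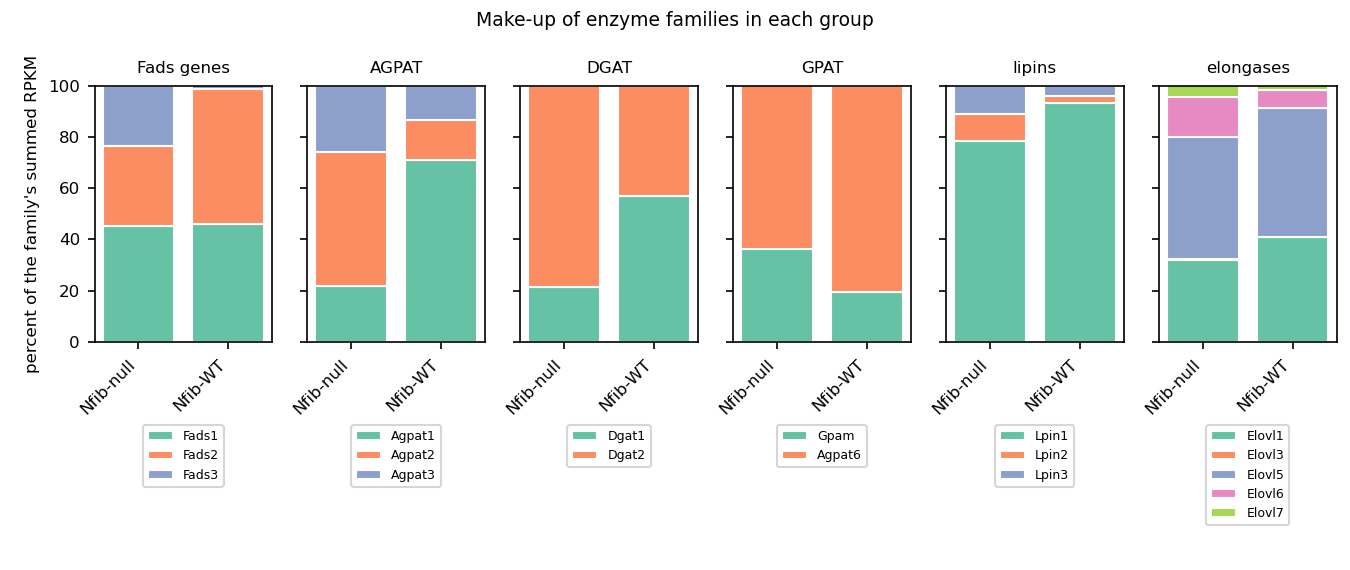
Share of each gene in the summed RPKM of its enzyme family, in percent, with the Nfib-null column as the left bar and the Nfib-WT column as the right bar of each panel. Fads3, Agpat2, Agpat3, Dgat2, Gpam, Lpin2, Lpin3, Elovl3, Elovl6 and Elovl7 take larger shares in null glands, with 52.5% against 15.3% for Agpat2.

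Of the 4 regulators 2 were lower and 2 within 2-fold. Srebf1, the transcription factor that turns on most genes of fatty acid synthesis, had 90.1 RPKM in null glands, against 190 RPKM in wild-type glands (log2 −1.48). Thrsp, also called Spot14, a small protein that supports fatty acid synthesis in the lactating gland of mice, measured 523 RPKM in null and 1249 RPKM in wild-type glands (log2 −1.67). Mlxipl, the carbohydrate response factor ChREBP, was at 16.7 RPKM in null glands and 7.15 RPKM in wild-type glands (log2 0.74). The ratio of Srebf1 to Mlxipl was 5.41 in null glands and 26.6 in wild-type glands. Insig2, which holds the SREBP precursor in the endoplasmic reticulum, reached 15.7 RPKM in null glands, against 10.6 RPKM in wild-type ones (log2 0.14).

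**Figure D3:**
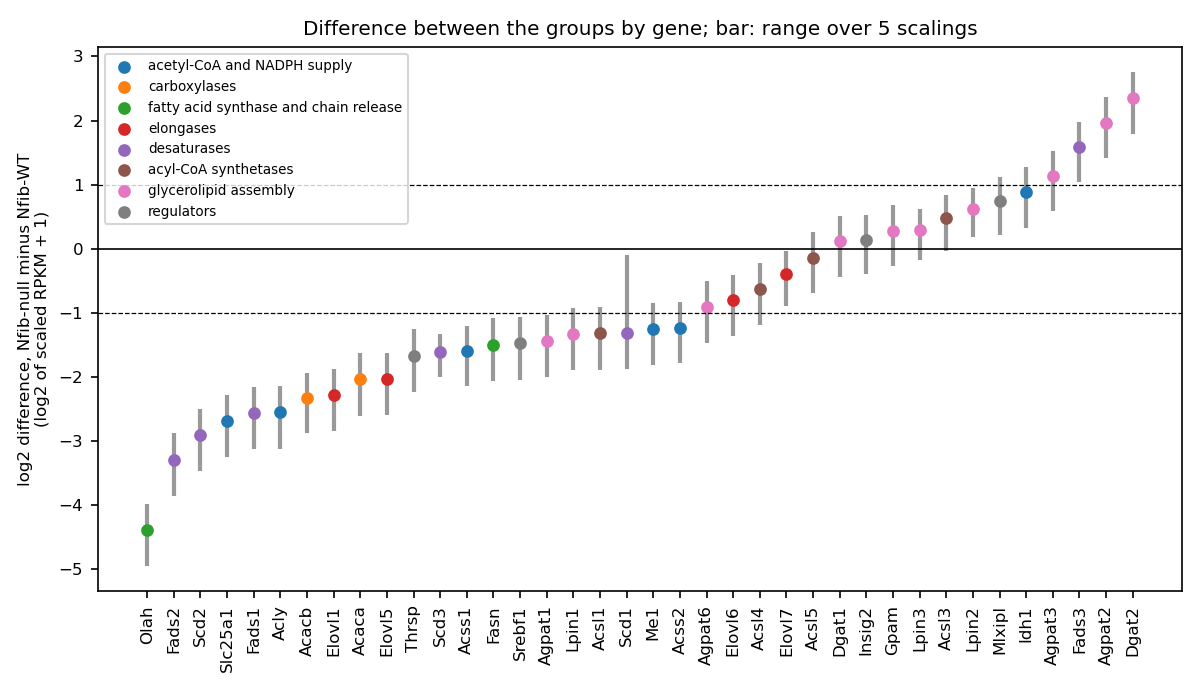
Difference of log2(scaled RPKM + 1), Nfib-null minus Nfib-WT, of the 38 genes above the minimum in order, coloured by step, with a grey bar for the range over 5 scalings of the columns and dashed lines at 2-fold. Supply, synthase and desaturase genes fill the low end down to Olah at −4.38, glycerolipid assembly genes hold most of the high end up to Dgat2 at 2.36, and the bar of Scd1 reaches −0.10.

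Lower values were more frequent among genes of the set with a high mean over both columns. That mean includes the values being compared, so a gene can reach a level through its wild-type value alone. At 100 RPKM or more stood 8 genes of the set in null glands and 15 in wild-type glands. The counts by level therefore do not show a link between level and difference. Of the 15 genes that averaged 100 RPKM or more, 14 were lower in null glands and 1, Dgat2, was higher. Among all 534 genes of that level, 17.6% were lower and 11.8% higher. Of the 13 genes of the set with a mean from 30 to 100 RPKM, 6 were lower and 3 higher, against 10.1% and 7.66% of all genes of that level. Of the 10 below 30 RPKM, 1 was lower and 0 higher, against 4.69% and 6.58% of all such genes. Among all genes, both the share of lower genes and the share of higher genes thus grew with level. Together the 39 genes summed to 5361 RPKM in null glands and 11727 RPKM in wild-type glands. The columns themselves had unequal totals, 548491 RPKM in null glands and 947746 RPKM in wild-type glands. Of these totals the set held 0.977% in null glands and 1.24% in wild-type glands. With milk protein genes left out of the totals, it held 1.42% in null glands and 3.68% in wild-type glands. The size of the difference in share thus depends on whether milk protein genes are counted.

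The other genes of the pathway, 65 in number and named from the known biochemistry, were less one-sided. Of the 58 above the minimum, 10 were at least 2-fold lower and 9 at least 2-fold higher, with a median of −0.25. Unscaled, 5 were lower and 14 higher, where 2.95% of all genes were lower and 14.4% higher. When the columns were scaled to luminal markers, 23 were lower and 2 higher, where 18.7% of all genes were lower and 2.33% higher. The split of these genes thus shifted in the same direction as that of all genes. Of the 13 in carbon and NADPH supply 5 were lower and 0 higher. Pdhb and Dlat, subunits of pyruvate dehydrogenase, differed by −1.71 and −1.37, the cytosolic malate dehydrogenase Mdh1 by −1.27 and the citrate synthase gene Cs by −1.17. Pgd of the pentose phosphate pathway was just past the limit, at 135 RPKM in null and 205 RPKM in wild-type glands. Of these 5 only Pdhb passed 2-fold with values as deposited. Tecr, the reductase of the elongation cycle, differed by −1.03 and Cyb5b, a cytochrome b5 of the outer mitochondrial membrane, by −1.49.

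Among the other genes of fatty acid activation and binding, 6 of them above the minimum, 1 was lower and 2 were higher. Fabp3, a fatty acid carrier of the lactating gland and of muscle, had 414 RPKM in null glands, against 4261 RPKM in wild-type glands (log2 −3.77), while the carriers Fabp5 (−0.27) and Dbi (−0.33) were within 2-fold. Insig1, the partner of Insig2 that is itself switched on by SREBP, measured 41.4 RPKM in null and 216 RPKM in wild-type glands (log2 −2.76), and the ratio of Insig1 to Insig2 was 2.64 in null glands and 20.4 in wild-type glands. Mlx, the dimer partner of Mlxipl, differed by −1.50. Insig1 and Mlx were the lower ones among 13 other regulators, of which 1 was higher.

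The higher genes of the wider pathway included Cyb5, the electron donor of the desaturases, at 552 RPKM in null and 126 RPKM in wild-type glands (log2 1.71). Agpat9, a further glycerol phosphate acyltransferase, was at 13.3 RPKM in null glands and 1.89 RPKM in wild-type glands (log2 1.98), and was the only one past 2-fold of 9 other genes of glycerolipid assembly. Nr1h3, the oxysterol receptor LXR alpha that can switch on Srebf1, reached 20.0 RPKM in null glands, against 4.97 RPKM in wild-type ones (log2 1.44). Acot1 (1.47) and Acot2 (1.12), acyl-CoA thioesterases of closely related sequence, were also higher, and their reads may be divided between them. The rest were the mitochondrial acyl-CoA synthetases Acss3 (1.21) and Acsf2 (1.05), the dehydratase family gene Ptplad2 (1.06), and Scd4. Ptplad2 and Scd4 had 0.965 and 0.228 RPKM in wild-type glands, so they passed the minimum of 1 RPKM only through their null values. With a pseudocount of 5, Ptplad2 (0.46), Scd4 (0.32), Acot2 (0.56), Acss3 (0.63) and Acsf2 (0.77) were within 2-fold. With scaling to luminal markers only Cyb5 (1.14) and Agpat9 (1.52) stayed past 2-fold.

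Markers of fat cells and of milk secretion also differed between the columns. Of 19 white adipocyte markers 17 were higher by 2-fold or more in null glands and 0 lower, their summed level was 15018 RPKM in null glands and 3599 RPKM in wild-type glands, and none was at 0. The most abundant were Fabp4 at 5819 RPKM in null and 1183 RPKM in wild-type glands, Car3 at 3398 RPKM in null and 598 RPKM in wild-type glands, Cfd at 2447 RPKM in null and 579 RPKM in wild-type glands, and Lpl at 636 RPKM in null and 756 RPKM in wild-type glands. Lpl and Pparg are also counted among the other pathway genes above. Of 22 milk protein genes, led by Csn2, Csn1s2a, Wap and Glycam1, 15 were lower and 0 higher. Their summed level was 169626 RPKM in null glands and 629155 RPKM in wild-type glands. In the wild-type column Wap and Glycam1 share the value 102755 RPKM, and Lalba and Spp1 share 8156 RPKM, so the wild-type sum is uncertain. In bulk tissue, fewer cells of a type and less RNA per cell cannot be told apart, and the part of either in the differences of the 39 genes was not tested.

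The 4 higher genes were also set against the adipocyte marker Plin1, a lipid droplet protein that itself differed by 1.92. The 19 white adipocyte markers ran from −0.66 for Lpl to 2.90 for Pck1, with a median of 1.89. The ratios below therefore hold for Plin1 and would differ with another marker. Agpat2 stood at 0.601 of the Plin1 level in null glands and 0.573 in wild-type glands, Fads3 at 0.308 in null and 0.379 in wild-type glands, and Dgat2 at 1.36 in null and 1.01 in wild-type glands. Agpat3 stood at 0.295 in null and 0.506 in wild-type glands, and so differed less than Plin1. Fasn stood at 2.79 times the Plin1 level in null glands and 30.5 times in wild-type glands. Against the luminal keratin gene Krt18 the Fasn ratio was 0.917 in null glands and 4.84 in wild-type glands. This ratio depends on the marker chosen. Krt18 differed by 0.90, and 11 of 18 luminal markers lay above 0 and 7 below. Among the latter, Elf5 differed by −1.56, near the −1.49 of Fasn, and Ehf by −0.86.

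Markers of the epithelium itself were mostly within 2-fold. Of 18 luminal markers 4 were higher and 1, Elf5, was lower, with a summed level of 2584 RPKM in null glands and 1930 RPKM in wild-type glands and a median log2 difference of 0.57. Without scaling, 9 were higher and 1 lower. The other abundant luminal markers, Krt18, Krt19 and Krt8, differed by 0.90, 0.65 and 0.60. None of 10 basal markers, led by Acta2, Tagln, Myh11 and Cnn1, was past 2-fold, with a summed level of 1342 RPKM in null glands and 852 RPKM in wild-type glands. With the columns scaled to the luminal markers, the median of the 38 genes of fatty acid and triglyceride synthesis was −1.85, with 24 lower and 3 higher. Of all genes 18.7% were then lower and 2.33% higher, with a median of −0.49.

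Brown fat and sebaceous gland are other sites of Elovl3 and Scd3. The brown fat marker Ucp1 stood at 0.139 RPKM in null glands and was listed at 0 in wild-type glands. Of the 7 brown fat markers, 4 were above the minimum, with Cidea (−4.33) and Otop1 (−2.56) lower and Cox8b (1.30) higher, and the list summed to 62.5 RPKM in null glands and 727 RPKM in wild-type glands. Cidea, which is also a milk lipid gene, made up 46.1 RPKM of that sum in null glands and 712 RPKM in wild-type glands. Of 8 sebocyte markers, which include Cidea, Awat1 and Dgat2l6 were listed at 0 in both columns and 4 were above the minimum, with 1 lower and 0 higher and a summed level of 53.3 RPKM in null glands and 718 RPKM in wild-type glands.

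**Figure D4:**
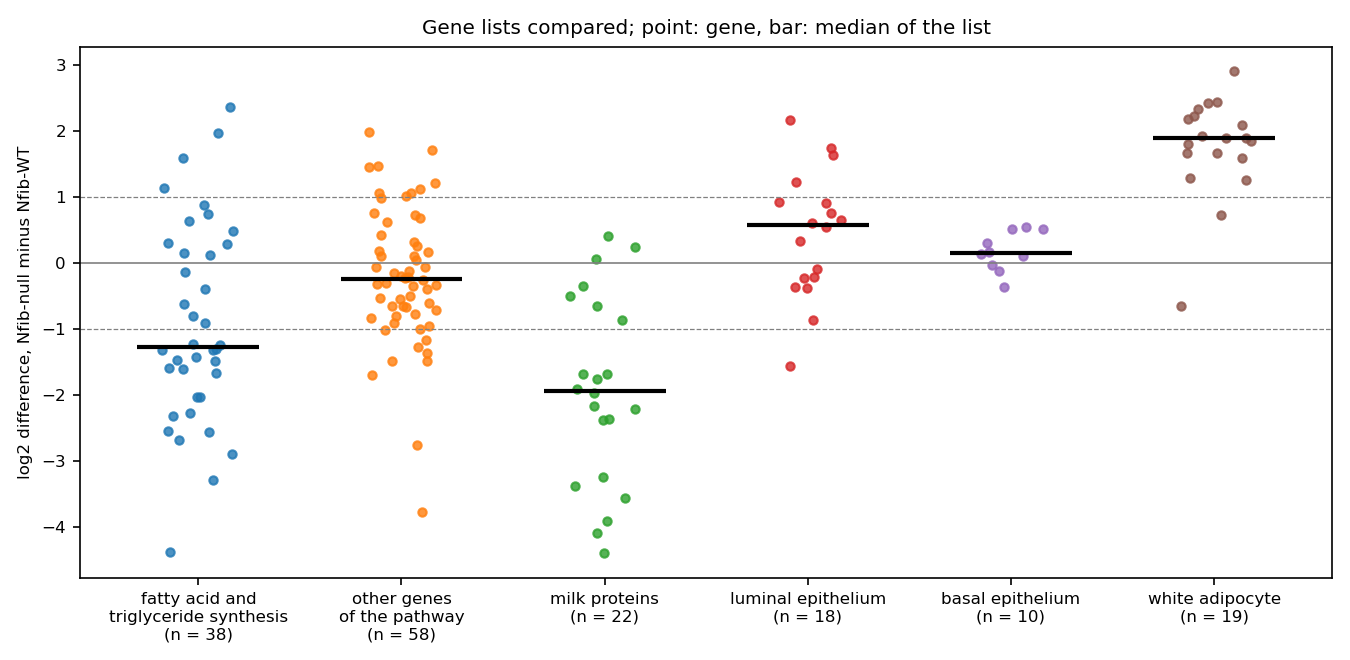
Difference of log2(scaled RPKM + 1), Nfib-null minus Nfib-WT, of each gene above the minimum in 6 lists, with a black bar for the list's median and dashed lines at 2-fold. The fatty acid and triglyceride genes, with a median of −1.28, reach from the range of the milk protein genes, whose median is −1.95, to that of the white adipocyte markers, whose median is 1.89.

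Sequences around the transcription start were read for motifs of factors named above, because many genes of the set were lower together. RefSeq windows of 300 bases on GRCm38.p6, from 250 before to 50 after a start, were at hand for 32 of the 39 genes, in 46 windows. Those not matched were Agpat6, Dgat1, Dgat2, Elovl3, Fads1, Scd1 and Scd2. Windows are shown for the 3 lower and the 2 higher genes farthest from 0 that had one, and for Fasn as the central enzyme. Capitals mark matches on either strand to TCACNCCA, a form of the SREBP element, CACGTG, the E-box read by ChREBP and Mlx, CCAAT, the NF-Y box, TTGGC, the core of sites bound by NFI factors, the full NFI site, in which TTGGC is followed after 5 bases by GCCAA, and TTCNNNGAA, the STAT element. TTGGC and the reverse of CCAAT share letters and can overlap. The lower genes are Olah at chr2:3366520-3366819 (minus strand), Fads2 at chr19:10101454-10101753 (minus strand), Slc25a1 at chr16:17928170-17928469 (minus strand) and Fasn at chr11:120824498-120824797 (minus strand). The higher ones are Agpat2 at chr2:26604368-26604667 (minus strand) and Fads3 at chr19:10041298-10041597 (plus strand). Each runs 5′ to 3′ on the strand of its gene:
Olah: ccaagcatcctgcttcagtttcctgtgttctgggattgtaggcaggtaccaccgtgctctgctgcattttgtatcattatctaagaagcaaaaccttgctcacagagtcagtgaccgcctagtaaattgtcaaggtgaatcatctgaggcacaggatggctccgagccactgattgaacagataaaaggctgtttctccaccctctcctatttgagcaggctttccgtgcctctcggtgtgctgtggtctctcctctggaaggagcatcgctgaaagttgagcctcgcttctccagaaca
Fads2: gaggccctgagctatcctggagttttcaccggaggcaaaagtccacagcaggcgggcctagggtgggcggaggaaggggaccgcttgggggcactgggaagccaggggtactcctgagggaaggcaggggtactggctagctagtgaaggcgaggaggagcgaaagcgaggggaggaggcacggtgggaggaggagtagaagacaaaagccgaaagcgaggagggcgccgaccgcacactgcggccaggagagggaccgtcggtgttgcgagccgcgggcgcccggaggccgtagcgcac
Slc25a1: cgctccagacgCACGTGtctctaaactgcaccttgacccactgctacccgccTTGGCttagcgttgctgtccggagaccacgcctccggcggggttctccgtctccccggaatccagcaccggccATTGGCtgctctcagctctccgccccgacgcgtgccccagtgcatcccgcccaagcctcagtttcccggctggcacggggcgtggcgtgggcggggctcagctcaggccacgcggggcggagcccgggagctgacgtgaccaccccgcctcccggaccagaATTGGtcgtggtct
Fasn: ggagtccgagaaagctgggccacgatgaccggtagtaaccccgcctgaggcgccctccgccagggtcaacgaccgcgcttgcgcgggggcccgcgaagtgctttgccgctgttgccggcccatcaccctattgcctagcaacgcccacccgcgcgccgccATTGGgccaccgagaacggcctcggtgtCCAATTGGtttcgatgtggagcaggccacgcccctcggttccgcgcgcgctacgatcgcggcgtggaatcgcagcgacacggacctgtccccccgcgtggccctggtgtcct
Agpat2: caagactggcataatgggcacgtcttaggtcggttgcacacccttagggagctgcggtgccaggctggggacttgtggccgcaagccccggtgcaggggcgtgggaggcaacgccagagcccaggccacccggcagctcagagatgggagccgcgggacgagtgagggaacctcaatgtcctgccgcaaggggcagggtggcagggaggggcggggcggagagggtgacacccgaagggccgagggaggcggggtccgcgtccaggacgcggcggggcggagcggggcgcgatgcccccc
Fads3: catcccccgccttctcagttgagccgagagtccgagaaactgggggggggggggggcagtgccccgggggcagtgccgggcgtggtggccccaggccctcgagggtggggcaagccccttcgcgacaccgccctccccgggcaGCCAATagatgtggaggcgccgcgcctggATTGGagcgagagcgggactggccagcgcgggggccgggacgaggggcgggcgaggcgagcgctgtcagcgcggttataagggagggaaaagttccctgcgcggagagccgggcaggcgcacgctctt

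The window of Fasn held 3 CCAAT boxes, of which those from −62 to −58 and from −59 to −55 share letters on opposite strands, and the third lay from −90 to −86. The window of Slc25a1 held an E-box from −239 to −234, 2 CCAAT boxes and 2 NFI cores, 1 of each overlapping near −124. The window of Fads3 held 2 CCAAT boxes and an NFI core that overlaps the first of them. None of the 6 motifs occurred in the windows of Olah, Fads2 and Agpat2, which says only that these letters are not in those 300 bases.

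Over the whole set, CCAAT occurred in 21 of 46 windows (45.7%), against 37.4% of all 32851 windows and 37.5% of the 11344 windows of genes above the minimum. It was held by 13 of the 24 windows of the lower genes (54.2%) and 7 of the 19 windows of the genes within 2-fold (36.8%). Counted by gene, it was held by 12 of 18 lower genes and 7 of 11 genes within 2-fold. These shares are close, so the contrast by window does not hold by gene. The NFI core occurred in 28 of 46 windows (60.9%), against 46.7% of all windows and 49.7% of those of genes above the minimum. It was in 15 of the 24 windows of the lower genes and in 11 of the 19 windows of the genes within 2-fold. Counted by gene, it was held by 11 of 18 lower genes and 8 of 11 genes within 2-fold. The full NFI site occurred in 0 of 46 windows, against 0.0365% of all windows. The STAT element occurred in 1 of 46 windows, that of Agpat1, against 8.30% of all windows and 6.87% of those of genes above the minimum. The SREBP element occurred in 4 of 46 windows (8.70%), those of Acsl1, Gpam, Mlxipl and Scd3, against 4.36% of all windows and 3.61% of those of genes above the minimum. The E-box occurred in 5 (10.9%), those of Elovl5, Lpin2, Lpin3, Mlxipl and Slc25a1, against 7.15% and 9.94%. The SREBP element was in 2 of the 24 windows of the lower genes (8.33%) and 2 of the 19 windows of the genes within 2-fold (10.5%). The E-box was in 2 (8.33%) and 3 (15.8%) of them. These counts are too small to compare the groups. Of the 3 windows of higher genes, 1 held CCAAT, 2 held the NFI core and 0 held any other of the motifs. The windows are short, members with several starts have several windows, and the counts are a description with no test.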

How the data were processed

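Poly(A) RNA of whole mammary glands was measured in 3 Nfib-null and 2 wild-type libraries (Illumina TruSeq and HiSeq, per the labels' protocols). The submitters' processing notes name CASAVA, TopHat and mm9. Which tool counted reads, on which annotation and with what strand setting is not given in the sources used here. The values are RPKM deposited by the authors, per the file headers, with 1 value per gene and group. In the wild-type column 32 genes at 1 RPKM or more share their exact value with another gene, against 6 in the other column, as a rank-based normalization could give. None of the 39 genes is among them, but untied wild-type values may be affected too.

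The gene set and all lists were chosen with earlier results of these data known. Genes with a mean over the 5 libraries of at least 1 RPKM were kept (12511 kept, 10098 removed). The columns were divided by median-ratio factors of 1.15 (Nfib-null) and 0.867 (wild type), a pseudocount of 1 was added before log2, and at least 2-fold was called higher or lower. The planned limma fits need values per library and could not be run. The named genes are every member, the other pathway genes past 2-fold and the 4 most abundant of the main marker lists, besides those named to account for a count or used as a ratio's reference. Work was done in Python 3.11.15 with pandas 2.3.3. Depth was estimated from genes with 1 GENCODE transcript by reading low values as 1 read in 1 library. The most frequent depths, called steps, were about 27200000 and 32800000 reads for Nfib-null libraries and 14900000 and 17700000 for wild-type libraries. This holds provided low values were not rescaled. Of 323 genes in range in the Nfib-null column 34 and 20 lay within 1% of these steps, and 39 and 36 of 244 in the wild-type column. Only the 2 most frequent steps of each column were taken, so none was sought for the remaining Nfib-null library. Lpin3, the gene of the set with the fewest above the minimum, would then rest on about 378 wild-type reads, a counting error of 5.15%, which leaves the spread between animals unknown. Transcripts were compared in windows of 50 bases on GENCODE M21, and where genes overlap on opposite strands their reads cannot be told apart.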

Additional observations from a re-analysis of the deposited data

How the results depend on the processing

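The median of the fatty acid and triglyceride genes stayed below 0 under each alternative, at −0.87 with values as deposited, −0.96 with quantile normalization, −1.12 with equal sums without milk protein genes, −1.85 with scaling to luminal markers, −1.28 and −1.17 with pseudocounts of 0.1 and 5, −1.25 without a filter and −1.24 with a minimum of 5 RPKM. Under these 8 settings 15 of the 21 lower and 3 of the 4 higher genes kept their call wherever they were above the minimum. The exceptions were Acsl1, Acss2, Lpin1, Me1, Scd1, Scd3 and, among the higher ones, Agpat3, and none of the 25 called genes took the opposite sign. Of the 13 genes within 2-fold, 2 kept both sign and call under all 8. Idh1 and Mlxipl (1.12) passed 2-fold as deposited, Idh1 also with quantile normalization and milk-free sums, and Elovl6 (−1.35), Acsl4 (−1.19) and Agpat6 (−1.48) with luminal scaling. With a limit of 1.5-fold 24 genes were lower and 7 higher (all genes 14.7% and 17.1%), and with 4-fold 10 were lower and 1 higher (1.23% and 0.727%). The other pathway genes moved with all genes, with 5 lower and 14 higher as deposited (all genes 369 and 1800), 23 and 2 with luminal scaling (all genes 2337 and 292), 4 higher with a pseudocount of 5, 5 higher with a minimum of 5 RPKM, 20 and 14 at 1.5-fold, and 2 and 0 at 4-fold. The cause was not tested. Leaving out single libraries was not run, since the table holds no values per library. No paired analysis was possible because the columns are group values that carry no replicate numbers. The spread between animals is unknown, and no result has a replicate check.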
